A study of Solanum lycopersicum with 6 samples.

Results

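NOR, NOR-like1, CNR, AP2a and DML2 are 5 regulators of tomato fruit ripening, and their transcripts were compared between slgols2 and wild type (WT) fruit. They were chosen by gene identifier, as 5 of the 35768 gene models in the table. The 6 RNA sequencing libraries came from pericarp, the wall of the fruit, sampled at its shoulder by the stalk in the cultivar Ailsa Craig (Solanum lycopersicum). Fruit were taken at 30 DPA (days post anthesis) from plants kept in a greenhouse with 16 h of light at 25 °C and 8 h of dark at 18 °C. There were 3 libraries from slgols2 fruit, a knock-out made by CRISPR-Cas9 editing, and 3 from WT fruit of the same stage. The labels do not say how many edited lines were used or whether replicates came from separate plants. The p-values therefore cover no more than the scatter of these 6 libraries, which may be technical.

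Ripening of tomato turns a green, firm fruit red and soft, and is driven by a burst of the hormone ethylene. NOR (non-ripening) and NOR-like1 are NAC transcription factors that promote ripening, and fruit of the nor mutant do not ripen normally. CNR (Colorless non-ripening) is an SBP-box transcription factor known from an epimutation in which its promoter is heavily methylated and the fruit do not ripen normally. AP2a is an AP2/ERF transcription factor whose silencing raises ethylene production, so it is counted as a brake on ripening. DML2 is a DEMETER-like DNA glycosylase that removes methylated cytosines, and fruit that lack it keep methylation at ripening genes and ripen poorly.

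The values are FPKM, fragments scaled by gene length and by library depth. For the 4 regulators matched by symbol to a RefSeq gene of another assembly (SLM_r2.1), the length behind them was 0.870 to 1.02 times the gene span, introns included, so levels set side by side between genes are per base of about that span. Read numbers could be recovered from the steps between FPKM values, with depths of 16054248 to 17941974 fragments in slgols2 libraries and 15593387 to 17448121 in WT libraries. Genes with a mean of at least 1 FPKM over the 6 libraries were tested with limma on log2(FPKM + 1). Of these 15695 gene models 36 passed an adjusted p of 0.05, or 0.229%. Replicate 3 of slgols2 stood apart from slgols2 replicates 1 and 2. It correlated with them at 0.849 and 0.869 across tested genes, against 0.957 between those replicates. With WT libraries it correlated at 0.878 to 0.903. The correlations of slgols2 replicates 1 and 2 with WT are not given here, so these values do not say which slgols2 libraries are unusual. Genes are not independent replicates, so these correlations only describe the libraries. The difference of each regulator is therefore also given without slgols2 replicate 3. No gene model is identified here as the edited gene, and its level was not analysed here.

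Of the 5 regulators, 4 reached the filter and were tested, and 0 of these 4 passed the adjusted threshold (limma, and 0 with limma-voom on recovered reads). At an unadjusted p of 0.05, which 12.0% of all tested gene models passed, 0 of the 4 did. Exact two-sided permutation tests over the 6 libraries gave p of 0.7, 0.5, 0.8 and 0.6 for NOR-like1, CNR, AP2a and DML2. NOR was the exception to the filter, with a mean of 0.557 FPKM over all libraries. It was also the only one of the 5 whose slgols2 and WT values did not overlap. The 4 tested regulators all overlapped, against a background of 19.2% of tested gene models that did not. Among the 18722 gene models with a mean of at least 10 reads, which include NOR, 10.2% were likewise lower in every slgols2 library than in any WT library.

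**Figure D1:**
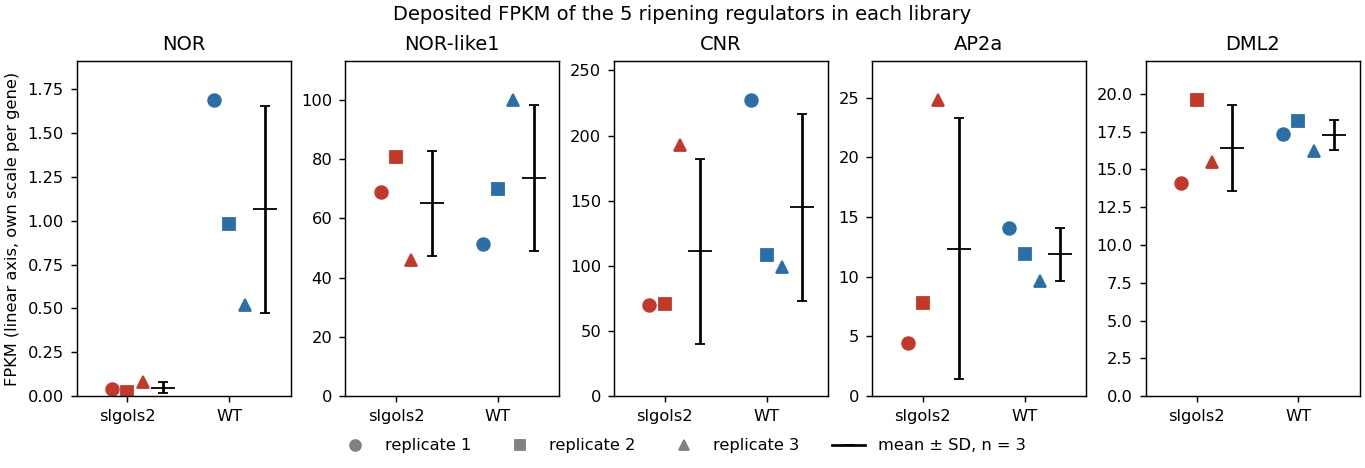
FPKM of each regulator (vertical axes, linear, each with its own scale) in the 3 slgols2 libraries (red) and the 3 WT libraries (blue), with marker shape giving the replicate and black bars the mean ± SD of 3 libraries. NOR was between 0.0211 and 0.0831 FPKM in slgols2 and between 0.522 and 1.69 FPKM in WT, while the groups overlapped for the other 4 genes, and CNR and AP2a in slgols2 replicate 3 lay apart from slgols2 replicates 1 and 2.

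NOR, gene model Solyc10g006880.3 on chromosome 10 by its identifier, was close to absent from slgols2 fruit and low in WT fruit. It stood at 0.0378, 0.0211 and 0.0831 FPKM in slgols2 libraries 1, 2 and 3, against 1.69, 0.984 and 0.522 FPKM in WT libraries 1, 2 and 3. In reads this was 2, 1 and 4 in the slgols2 libraries and 87, 50 and 24 in the WT libraries. The slgols2 libraries thus lay around the floor of 3 reads, which corresponds to 0.0567, 0.0634 and 0.0623 FPKM there, and the lowest WT library lay well above it. The mean was 0.0473 ± 0.0321 FPKM in slgols2 and 1.07 ± 0.589 FPKM in WT (SD, n = 3 each).

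Summed over libraries, NOR had 7 reads in slgols2 and 161 reads in WT, a ratio per fragment of 0.0434 for slgols2 over WT. The exact 95% interval of this ratio ran from 0.0172 to 0.0916, which covers counting error only. An exact two-sided permutation test over the 6 libraries gave p = 0.10, the smallest that 3 against 3 libraries allow. On the log2(FPKM + 1) scale without the filter, NOR was 0.94 lower in slgols2 with a standard error of 0.20 (log2 difference -0.94), and that scale understates changes of genes this low. The limma p was 0.00392 before and 0.225 after adjustment over 25084 gene models, of which 0.219% passed.

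With limma-voom on recovered reads, in gene models with a mean of at least 10 reads (chosen after seeing the data), the log2 difference was -4.24 with a standard error of 0.95 and a 95% interval from -6.50 to -1.98. Its adjusted p was 0.197, and 0.192% of the 18722 gene models passed. A fitted difference for a gene with so few reads in slgols2 depends on the small count added before the logarithm. In that fit 59 gene models, or 0.315%, had a difference at least as low as that of NOR. NOR did not pass in any of the 17 fits that held it, with adjusted p between 0.0915 and 0.516, and its value was lower in slgols2 in all 17, as it must be for groups that do not overlap. Without slgols2 replicate 3 the adjusted p was 0.125 with limma-voom and 0.173 on the log2(FPKM + 1) scale. NOR was thus lower in each of the 3 slgols2 libraries than in any WT library, and the difference failed the correction for the number of genes tested.

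**Figure D2:**
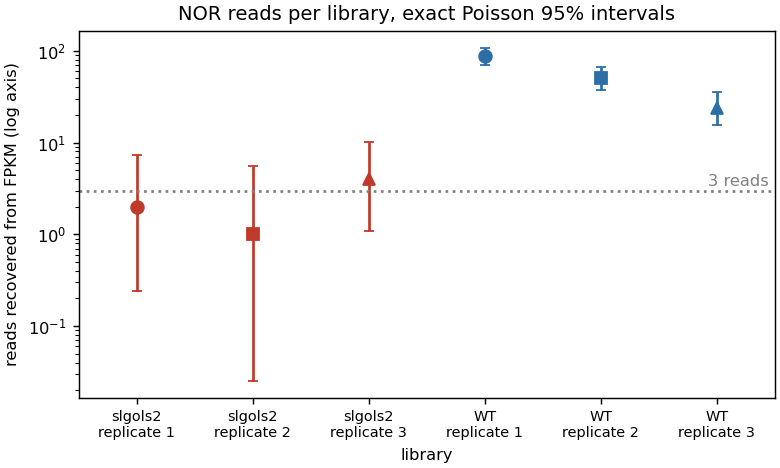
Reads of NOR recovered from the FPKM values (vertical axis, log scale) in each slgols2 library (red) and WT library (blue), with exact Poisson 95% intervals as bars and a dotted line at 3 reads. The slgols2 libraries held 2, 1 and 4 reads and the WT libraries 87, 50 and 24.

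NOR-like1, gene model Solyc07g063420.3 on chromosome 7, was abundant in both genotypes. It stood at 69.0, 80.6 and 45.8 FPKM in slgols2 libraries 1, 2 and 3, against 51.2, 70.0 and 100.1 FPKM in WT libraries 1, 2 and 3. The groups overlapped, with the lowest value in slgols2 replicate 3 and the highest in WT replicate 3. The mean was 65.2 ± 17.7 FPKM in slgols2 and 73.8 ± 24.7 FPKM in WT (SD, n = 3 each). The log2 difference was -0.16, with a 95% interval from -0.96 to 0.63 (limma adjusted p = 0.879). The direction turned to 0.068 without slgols2 replicate 3 and to 0.082 without WT replicate 3 (limma adjusted p = 0.909 and 0.947).

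The NAC genes NOR and NOR-like1 differed widely in level. The recovered lengths of their gene models were 2948 and 2661 bases, so their FPKM can be set side by side. The FPKM of NOR-like1 was 1826, 3815 and 551 times that of NOR in slgols2 replicates 1, 2 and 3, and 30.3, 71.1 and 192 times in WT replicates 1, 2 and 3. The ratios did not overlap between genotypes, which follows from the low values of NOR in slgols2, and there they rest on 1 to 4 reads of NOR.

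CNR, gene model Solyc02g077920.3 on chromosome 2, had the highest mean FPKM of the 5. It stood at 69.9, 70.3 and 192.8 FPKM in slgols2 libraries 1, 2 and 3, against 227.6, 107.9 and 99.5 FPKM in WT libraries 1, 2 and 3. Replicates 1 and 2 of slgols2 were below every WT library, whereas slgols2 replicate 3 was second only to WT replicate 1. The mean was 111.0 ± 70.8 FPKM in slgols2 and 145.0 ± 71.6 FPKM in WT (SD, n = 3 each), so the spread within each genotype was larger than the difference between them. The log2 difference was -0.45, with a 95% interval from -1.69 to 0.79 (limma adjusted p = 0.767). It was -0.93 without slgols2 replicate 3 (limma adjusted p = 0.234) and -0.07 without WT replicate 1 (limma adjusted p = 0.988), and CNR passed in neither fit.

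AP2a, gene model Solyc03g044300.3 on chromosome 3, varied most among the slgols2 libraries. It stood at 4.45, 7.78 and 24.8 FPKM in slgols2 libraries 1, 2 and 3, against 14.1, 11.9 and 9.67 FPKM in WT libraries 1, 2 and 3. Replicates 1 and 2 of slgols2 were the lowest of the 6 libraries and slgols2 replicate 3 was the highest, so the WT values lay between them. The highest slgols2 library was 5.58 times the lowest, against 1.46 times in WT. The mean was 12.4 ± 10.9 FPKM in slgols2 and 11.9 ± 2.22 FPKM in WT (SD, n = 3 each).

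On the log2(FPKM + 1) scale the AP2a difference was -0.25, with a 95% interval from -1.60 to 1.09 (limma adjusted p = 0.887), so the means of FPKM and of its logarithm differed in sign. Without slgols2 replicate 3 the difference was -0.88 (limma adjusted p = 0.140), and without slgols2 replicate 1 it was 0.24 (limma adjusted p = 0.902). CNR and AP2a shared the same order in part: WT replicate 1 and slgols2 replicate 3 were the highest 2 libraries for both, and slgols2 replicates 1 and 2 the lowest 2. For NOR-like1, slgols2 replicate 3 and WT replicate 1 were the lowest 2 libraries.

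DML2, gene model Solyc10g083630.2 on chromosome 10, was the steadiest of the 5. It stood at 14.1, 19.6 and 15.5 FPKM in slgols2 libraries 1, 2 and 3, against 17.3, 18.2 and 16.2 FPKM in WT libraries 1, 2 and 3. The WT values lay within the range of the slgols2 values. The mean was 16.4 ± 2.86 FPKM in slgols2 and 17.3 ± 0.984 FPKM in WT (SD, n = 3 each). The log2 difference was -0.08, with a 95% interval from -0.50 to 0.35 (limma adjusted p = 0.888). That interval was the narrowest of the 4 tested regulators. Between 2775 and 3452 reads stood behind each DML2 value. Without slgols2 replicate 3 the difference was -0.05 (limma adjusted p = 0.893), and without slgols2 replicate 1 it was 0.017 (limma adjusted p = 0.987).

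The differences among slgols2 libraries in CNR and AP2a ran alongside those of other gene groups. The summed FPKM of 16 loci listed as heat shock chaperones, which refold proteins in stressed cells, was 23498, 14630 and 669 in slgols2 libraries 1, 2 and 3, against 1240, 721 and 768 in WT libraries 1, 2 and 3. All 15 tested loci of that list had a higher mean in slgols2 and 0 passed the threshold over all genes, and 1 locus was at 0 in every library. At an unadjusted limma p of 0.05, 6 of the 15 passed, against 12.0% of all tested gene models. In 6 of the 15, every slgols2 library, replicate 3 included, was above every WT library. Over all tested gene models, 19.2% had groups that did not overlap in either direction. The summed FPKM of 9 epidermis loci, markers of the outer cell layer, was 1421, 1773 and 2745 in slgols2, against 2812, 3652 and 3811 in WT, with 1 locus at 0 in every library.

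The epidermis sums did not overlap between genotypes. Most of each sum came from the most abundant loci of the list, whose own groups overlapped. All 8 tested epidermis loci had a lower mean in slgols2, and 0 passed. At an unadjusted limma p of 0.05, 5 of the 8 passed, against 12.0% of all tested gene models. In 5 of the 8, every slgols2 library was below every WT library, against 19.2% of all tested gene models not overlapping in either direction. The sum of 9 seed loci, markers of a tissue that pericarp should lack, was 0.589, 35.1 and 2.13 FPKM in slgols2 and 4.52, 6.44 and 23.2 FPKM in WT, with 3 loci at 0 throughout. Replicates 1 and 2 of slgols2 were thus high in the heat shock sum and lowest in the epidermis sum, CNR and AP2a. In slgols2 replicate 3 the heat shock sum was below and the epidermis sum just below the WT values. The 6 chaperone loci that were higher in every slgols2 library lay above the WT values there too. In that library CNR was within the WT values and AP2a above them. NOR was low in all 3 slgols2 libraries. In all 3 the epidermis sum was also below every WT library, whereas the heat shock sum differed among them. The part of these markers in the values of the regulators was not tested. In whole tissue, fewer cells of a type and less RNA per cell cannot be told apart.

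**Figure D3:**
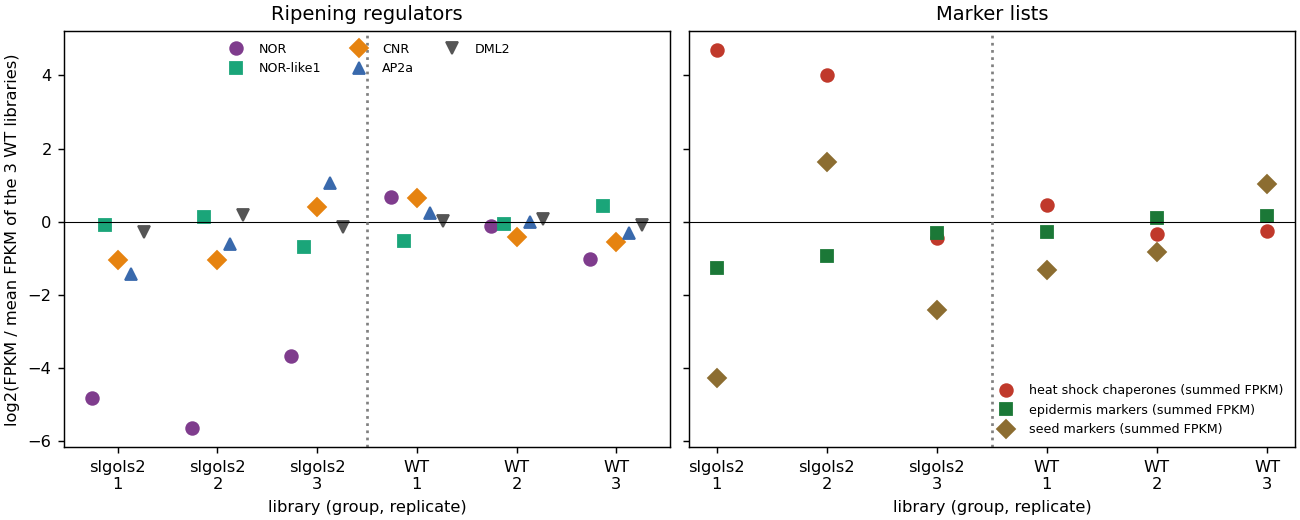
Log2 ratio of FPKM to the mean FPKM of the 3 WT libraries (vertical axis) in each library, slgols2 left of the dotted line and WT right of it, for the 5 regulators (left panel) and for the summed FPKM of 3 marker lists (right panel). NOR was low in all 3 slgols2 libraries, CNR and AP2a in slgols2 replicates 1 and 2, and the heat shock sum was high in those same 2 libraries. The epidermis sum was below every WT library in all 3 slgols2 libraries.

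Relatives of the regulators were described by lists of loci recalled from the literature, which are given by count because the table pairs no names with identifiers. The recalled pairing is a limit of every list count. Of 34 loci of the NAC, SBP-box, AP2, DNA demethylase and DNA methyltransferase lists 24 were tested, of which 13 had a mean log2(FPKM + 1) that was higher in slgols2 and 11 one that was lower. Of these 24, 0 passed over all genes (limma; 4 at an unadjusted p of 0.05, and 0 with limma-voom). That unadjusted p was passed by 12.0% of all tested gene models, the background for this count and for those of the single lists below. Their median log2 difference was 0.02, against 0.00 over all 15695 gene models tested.

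Among the NAC relatives 3 of 4 tested loci had a lower mean in slgols2, with a median log2 difference of -0.63 and 0 past the threshold (limma; 2 at an unadjusted p of 0.05). NOR-like1 made up 61.1, 49.6 and 51.0% of the summed FPKM of the 11 NAC loci in slgols2 libraries 1, 2 and 3, against 27.2, 47.5 and 42.7% in WT libraries 1, 2 and 3. These shares did not overlap (exact two-sided permutation p = 0.10, the smallest possible), while the level of NOR-like1 itself overlapped. A share depends also on the other loci of the sum. The highest of those stood at 27.1, 48.6 and 34.3 FPKM in slgols2 libraries 1, 2 and 3. In WT libraries 1, 2 and 3 it stood at 104.8, 54.3 and 104.6 FPKM. Of the 4 tested NAC relatives, 2 were lower in every slgols2 library than in any WT library. Groups did not overlap, in either direction, for 19.2% of all tested gene models. The NAC locus next to NOR-like1 by identifier, Solyc07g063410.3, stood at 11.8, 18.2 and 3.25 FPKM in slgols2 and at 5.61, 5.60 and 13.3 FPKM in WT. Like NOR-like1, it was lowest in slgols2 replicate 3, and its groups overlapped (limma adjusted p = 0.900).

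CNR had the highest FPKM of the 10 SBP-box loci in every library. This ranking and the shares depend on the scaling by length. The recovered length was 2214 bases for CNR and 7643 bases for the locus next in FPKM. That locus had more reads than CNR in slgols2 replicates 1 and 2 and in WT replicates 2 and 3. Its share of their summed FPKM was 46.4, 43.1 and 66.5% in slgols2 libraries 1, 2 and 3, against 74.1, 60.3 and 53.0% in WT. The other SBP-box loci had 5 of 7 tested members with a higher mean in slgols2, and their median log2 difference was 0.20 (limma; 0 at an unadjusted p of 0.05). AP2a made up 27.0, 36.9 and 63.6% of the FPKM of the 4 AP2 loci in slgols2, against 32.6, 32.1 and 34.3% in WT. All 3 other AP2 loci had a lower mean in slgols2, with a median log2 difference of -0.46 and 0 of the 3 past the threshold (limma; 1 at an unadjusted p of 0.05).

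DML2 had the highest FPKM of the 4 demethylase loci, with 52.5, 58.1 and 51.1% of their sum in slgols2 and 56.0, 51.1 and 52.1% in WT. The other demethylases had 1 of 3 members higher in mean, with a median log2 difference of -0.06 (limma; 0 at an unadjusted p of 0.05). DNA methyltransferases and the chromatin remodeller DDM1, which put methylation in place and keep it, had 6 of 7 tested loci with a higher mean in slgols2. Their median log2 difference was 0.20, and 0 of the 7 passed (limma; 1 at an unadjusted p of 0.05).

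**Figure D4:**
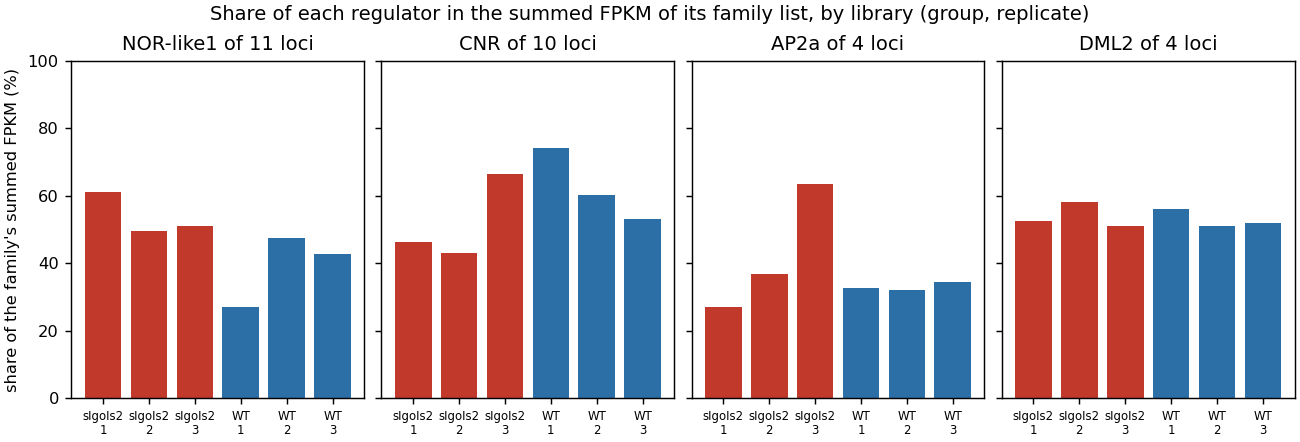
Share of NOR-like1, CNR, AP2a and DML2 in the summed FPKM of their family list (vertical axis, percent) in each slgols2 library (red) and WT library (blue), with replicates numbered below the bars. DML2 stayed between 51.1 and 58.1% in all 6 libraries, and AP2a reached 63.6% in slgols2 replicate 3.

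Among genes listed as acting beside or below these regulators in ripening, those that could be tested did not pass either. Of 7 other listed ripening regulators 6 were tested, with 2 higher and 4 lower in mean in slgols2, a median log2 difference of -0.23 and 0 past the threshold (limma; 0 also at an unadjusted p of 0.05). Of 31 loci listed as ripening targets 22 were tested. In mean 8 were higher and 14 lower in slgols2, with a median log2 difference of -0.10, and 0 passed (limma; 5 at an unadjusted p of 0.05, and 0 with limma-voom). The untested loci of these lists had a mean below 1 FPKM or were not among the gene models measured, so these counts do not cover them. All fruit were of 30 DPA, and no later stage was sampled.

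By function, the ethylene list had 2 of 8 tested loci higher in mean (median log2 difference -0.30), with 2 at an unadjusted limma p of 0.05. The softening list, of cell wall enzymes, held loci that differed both ways. Of its 5 tested loci 3 were higher in mean, and the differences ran from -1.06 to 0.96 around a median of 0.04. Its groups did not overlap at 4 of the 5 loci, 2 higher and 2 lower in slgols2, against the 19.2% of all tested gene models. At an unadjusted limma p of 0.05, passed by 12.0% of all tested gene models, 3 of the 5 did, and 0 passed after adjustment. The carotenoid and chlorophyll loss list had 1 of 6 higher (median log2 difference -0.21). Its groups did not overlap at 3 of the 6 loci, 0 higher and 3 lower in slgols2, against the same 19.2% in either direction. At an unadjusted limma p of 0.05, 0 of the 6 passed. The aroma list had 2 of 3 higher (median log2 difference 0.46), with 0 at that p. The lowest limma adjusted p in these 4 target lists was 0.291.

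**Figure D5:**
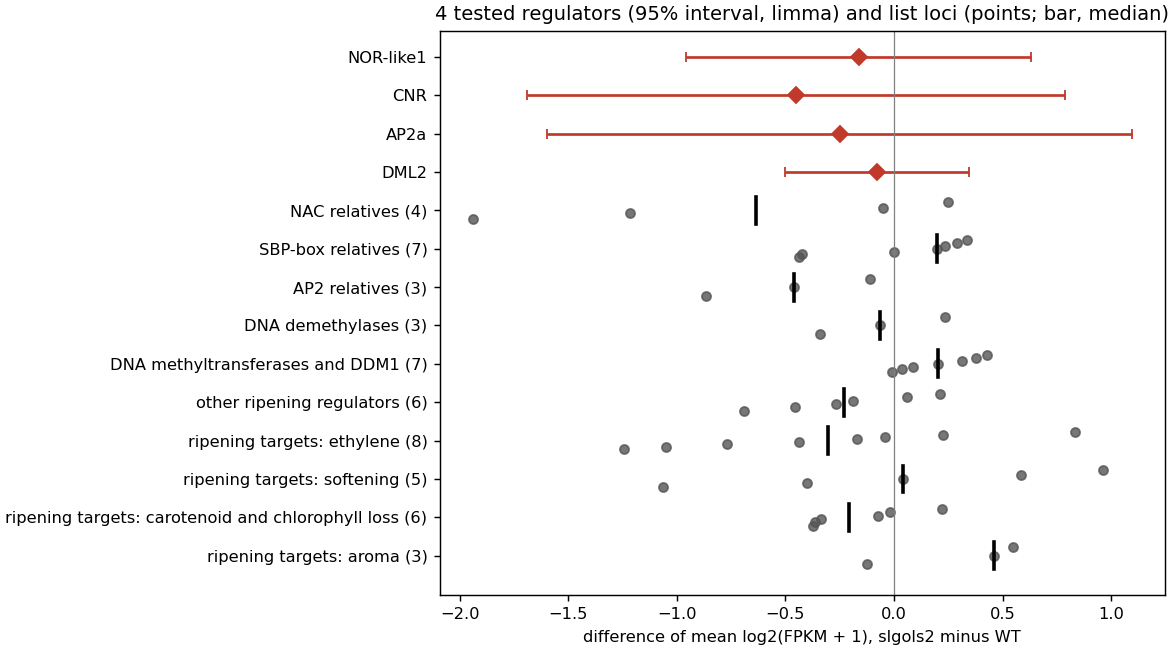
Difference of mean log2(FPKM + 1), slgols2 minus WT (horizontal axis), for the 4 tested regulators (red diamonds with limma 95% intervals) and for the tested loci of the lists of relatives, other regulators and targets (grey points, number in brackets, with the median as a black bar). The intervals of all 4 regulators span 0, and the medians of the lists drawn lie between -0.63 and 0.46. The heat shock, epidermis and seed lists, with medians of 2.79, -0.78 and -0.41, are not drawn.

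The gene models most like each regulator were sought by the Pearson correlation of log2(FPKM + 1) over the 6 libraries, among models with a mean of at least 10 FPKM. Over 6 libraries and 5254 or more candidates very high values arise by selection, so these are descriptions. For NOR the highest was Solyc02g079500.4 (r = 0.991), at 267.8, 301.0 and 337.1 FPKM in slgols2 replicates 1, 2 and 3 and 2185, 938.7 and 550.0 FPKM in WT replicates 1, 2 and 3. It followed NOR in the order of the WT libraries. The opposite pattern was closest in Solyc04g051800.3 (r = -0.995), at 66.5, 62.6 and 60.2 FPKM in slgols2 and 32.2, 41.2 and 48.5 FPKM in WT.

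For AP2a the highest was Solyc04g074100.3 (r = 0.999), at 6.86, 11.0 and 27.0 FPKM in slgols2 and 17.8, 15.3 and 13.1 FPKM in WT, and 109 of 5254 candidates reached an r of 0.95. For DML2, whose values varied least, 0 of 5254 reached it.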

How the data were processed

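The authors deposited 1 table of FPKM values for 35768 gene models in 6 libraries, per the file headers. The submitters' processing notes list HISAT2 2.1.0 and DESeq 1.38.3. For the counter, strand setting, genome build and annotation, nothing is stated in the labels or headers. Without strand, reads of overlapping antisense genes cannot be told apart. Libraries were grouped by title into 3 slgols2 and 3 WT.

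Depth was taken from FPKM steps, which are whole multiples of 1 read. Whole reads within 0.02 were found for 15684 of 15695 models (99.9%). In simulated data 98.4% of 2382 models came back exactly. Intervals and the floor of 3 reads cover counting error only.

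Models with a mean FPKM of at least 1 were fitted with limma 3.58.1 (R 4.3.3) on log2(FPKM + 1), with an intensity trend, two-sided, Benjamini-Hochberg adjusted at 0.05. Limma-voom used recovered reads. Both were tested on simulated data in which no library stood apart, and for limma with differences added only to genes above the level of NOR. Single values used exact permutation. Alternatives covered pseudocount, filter, scaling, trend, weights, block and each library left out.

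Members, lists and tests were chosen with earlier results of these data known. Member names came with the identifiers. The reference table (SLM_r2.1) holds 0 of the identifiers, but its symbols NOR, SPL-CNR, AP2a and DML2 lie on the same chromosomes, within 3.21 percentage points of gene rank. The recovered length was 1.02, 0.870, 1.01 and 1.01 times the reference gene span, so FPKM appear scaled to gene span, introns included. NOR-like1 is not a symbol there. All members were named. Other identifiers followed a rule (likeness over libraries, or a result turning on them) except where stated. A further exception was Solyc07g063410.3, given as the neighbour of NOR-like1 by identifier.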

Additional observations from a re-analysis of the deposited data

How the results depend on the processing

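The 4 tested regulators passed in 0 of 20 fits each, and NOR, fitted only without the FPKM filter, in 0 of 17. Over the fits that leave out each library, the log2 difference ran from -0.39 to 0.082 for NOR-like1, from -0.93 to -0.07 for CNR, from -0.88 to 0.24 for AP2a and from -0.21 to 0.017 for DML2. Sample quality weights turned NOR-like1 to 0.21 and DML2 to 0.089 and moved CNR to -0.95 and AP2a to -0.64 (limma adjusted p = 0.545, 0.686, 0.10 and 0.148). NOR was lower in slgols2 in all its fits, a direction that groups without overlap fix, and most of these fits were chosen after seeing the data.

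The 36 genes called became 55 when unfiltered, 20 when the pseudocount was 0.1, 15 when the filter was a mean FPKM of 5, 2028 with sample quality weights, 1 with limma-voom on recovered reads at the FPKM filter (36, of which 12 higher and 24 lower, with limma-voom at a mean of 10 reads), and 7 to 279 when each library was left out (7 and 9 without WT replicate 1 or 2, and 14, 23 and 279 without slgols2 replicate 1, 2 or 3). A pseudocount of 0.1 with no filter gave 81. What caused these shifts was not tested.

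A fit with a replicate block passed 1 gene. With 3 complete pairs the block leaves the log2 differences of NOR-like1, CNR, AP2a and DML2 at -0.16, -0.45, -0.25 and -0.08 by construction, and their adjusted p were 0.918, 0.832, 0.917 and 0.921. The block gave 0 genes with no filter (limma; 2038 at an unadjusted p of 0.05) and 0 with limma-voom at a mean of 10 reads (1834), where NOR had adjusted p of 0.451 and 0.306. Deviations of same-numbered libraries correlated at -0.15, 0.09 and -0.17, so the numbers are not shown to pair them. At this depth a gene at NOR's level rests on few reads.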

Other observations

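The 2 loci given here were chosen after their values were seen. Solyc05g012020.3, of the list of other ripening regulators, was also low, and like NOR it was highest in WT replicate 1 and lower in every slgols2 library than in any WT library. It held 10, 16 and 8 reads in slgols2 replicates 1, 2 and 3, against 91, 48 and 33 reads in WT replicates 1, 2 and 3. Its mean was 0.109 ± 0.0441 FPKM in slgols2 and 0.540 ± 0.261 FPKM in WT (SD, n = 3 each), which put it below the filter. The groups did not overlap (exact two-sided permutation p = 0.10, the smallest possible), and without the filter it did not pass (limma adjusted p = 0.298).

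Solyc12g013620.2, of the NAC relatives, stood at 2.12, 4.75 and 2.44 FPKM in slgols2 replicates 1, 2 and 3, against 18.0, 12.2 and 12.9 FPKM in WT replicates 1, 2 and 3. All slgols2 libraries, replicate 3 among them, were below all WT libraries. The log2 difference was -1.94 with a standard error of 0.28, and its adjusted p of 0.0828 (limma) was the lowest among the relatives and target lists.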
